A study of Mus musculus with 24 samples.

Results

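The 35 genes described here encode the enzymes that carry glucose to lactate, from hexokinase to lactate dehydrogenase, together with the bifunctional phosphofructokinase regulators (Pfkfb), the pyruvate dehydrogenase kinases (Pdk), the pyruvate dehydrogenase subunit Pdha1 and the enzymes of muscle glycogen turnover. A probe was taken when the array files gave it the name of such a gene (Pkm may be written Pkm2) and at least 1 group had it well above background on every array. This held for 53 of 54 probes and 34 of 35 genes, of 55681 probes and 34947 gene names on the array. Pklr, the pyruvate kinase of liver and red cells, did not meet it, and its differences were not tested.

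Expression had been measured on single-colour Agilent arrays in male mice of the obese, diabetes-prone strain NZO (NZO/HiBomDife) and of the lean laboratory strain B6 (C57BL/6), in skeletal muscle, titled quad in the labels, brown fat (BAT) and gonadal white fat (gWAT). Both strains were given a diet with 45% fat, and the labels give 6 weeks as the age of the mice. This gave 6 groups with 4 arrays each, 24 in all. The B6 muscle array 011 was left out, which left 23 arrays and 3 in that group. Whether each array of a group stands for another animal is not in the labels, so the p-values rest on the spread of these samples alone, and part of it may be technical. In bulk tissue, fewer cells of a type and less RNA per cell cannot be told apart. Levels are log2 signals from which the array's 75th percentile was subtracted, and a gene with several probes is represented by the one with the highest mean. A difference is NZO minus B6 unless said otherwise, with the standard error (SE) of the limma fit and a Benjamini-Hochberg adjusted p over all genes tested in that comparison, called under 0.05. A probe's level was compared only with that of the same probe elsewhere.

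The labelled tissues carried their markers. Ucp1, the uncoupling protein of brown fat, had mean levels of 10.005 in NZO BAT and 10.38 in B6 BAT, and all 15 markers of skeletal muscle fibres were well above background on every muscle array. The array left out, B6 muscle 011, had a white adipocyte marker level of 10.40 (log2 of the summed signals of 7 genes) against 7.68 to 7.97 on the other B6 muscle arrays, and a macrophage marker level of 6.56 against 5.53 to 5.62. Its share in the muscle results is given with them. BAT of the strains differed in the 15 fibre markers, while the sums of 6 slow fibre markers, listed apart, overlapped. The slow fibre sums were 2.71 to 4.30 in NZO BAT and 2.18 to 5.73 in B6 BAT. Of 5 slow fibre markers tested there, 2 fell in NZO and 0 rose. The summed level of the 15 fibre markers was 8.09 to 10.15 on the B6 BAT arrays and 0.97 to 3.36 on the NZO BAT arrays, all 15 fell in NZO, and all were well above background on every B6 BAT array against 6 on every NZO one. In gWAT, 7 of 8 macrophage markers rose in NZO and Itgam fell. Of 6 brown adipocyte markers, 5 rose in NZO gWAT, among them Ucp1 by 7.82 on the log2 scale, and their summed level was 6.71 to 7.53 there against 4.08 to 5.10 in B6 gWAT. Arrays differed in brightness, with a 75th percentile of 119 to 311 signal units.

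Glycolysis is run by families of isoforms that catalyse the same step in different cells. Skeletal muscle relies on Hk2, Pfkm, Pgam2 and Eno3, and on the glycogen phosphorylase Pygm, while Hk1, Pfkl, Pfkp, Pgam1 and Eno1 serve most other cells. Insulin is known to raise Hk2 in muscle and fat. The pyruvate dehydrogenase kinases switch off pyruvate entry into the mitochondria, Pdk1 as a target of the hypoxia-inducible factor and Pdk4 as a gene of fasting and fat oxidation. Muscle genes are commonly activated from E-boxes bound by MyoD-family factors and from MEF2 sites.

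The promoters of the genes with the widest strain differences in brown fat are shown because the muscle isoforms among them moved together there. Each run of 300 bases is from RefSeq (assembly GRCm38.p6), 250 bases before to 50 after the transcript start, 5′ to 3′, with E-boxes (CANNTG) in capitals. Pgam1, the widely expressed counterpart of Pgam2, is added for contrast, and for Pdk1 the first of 2 listed windows is given.
Pgam2, chr11:5803747-5804046, minus strand: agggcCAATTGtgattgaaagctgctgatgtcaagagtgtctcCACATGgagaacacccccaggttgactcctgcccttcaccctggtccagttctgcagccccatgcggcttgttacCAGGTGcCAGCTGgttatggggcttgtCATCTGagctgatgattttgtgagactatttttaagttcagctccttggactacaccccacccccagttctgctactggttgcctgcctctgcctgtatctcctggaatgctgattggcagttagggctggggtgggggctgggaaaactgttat
Pgam1, chr19:41911621-41911920, plus strand: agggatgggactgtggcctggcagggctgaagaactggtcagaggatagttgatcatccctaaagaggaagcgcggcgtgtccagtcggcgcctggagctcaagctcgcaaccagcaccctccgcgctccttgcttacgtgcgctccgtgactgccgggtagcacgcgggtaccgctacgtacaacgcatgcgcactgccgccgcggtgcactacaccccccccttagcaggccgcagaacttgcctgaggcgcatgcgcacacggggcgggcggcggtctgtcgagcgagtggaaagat
Eno3, chr11:70656926-70657225, plus strand: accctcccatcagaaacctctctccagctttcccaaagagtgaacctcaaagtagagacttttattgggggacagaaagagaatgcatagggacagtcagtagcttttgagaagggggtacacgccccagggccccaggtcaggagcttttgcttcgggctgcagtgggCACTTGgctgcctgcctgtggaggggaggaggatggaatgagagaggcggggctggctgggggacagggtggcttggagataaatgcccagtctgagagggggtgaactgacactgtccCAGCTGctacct
Pygm, chr19:6384158-6384457, plus strand: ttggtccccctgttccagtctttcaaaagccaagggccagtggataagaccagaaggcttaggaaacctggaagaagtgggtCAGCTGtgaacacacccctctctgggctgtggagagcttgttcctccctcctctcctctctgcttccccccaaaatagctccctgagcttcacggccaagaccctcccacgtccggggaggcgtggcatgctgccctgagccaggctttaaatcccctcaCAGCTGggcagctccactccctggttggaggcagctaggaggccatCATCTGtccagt
Pdk1, chr2:71872974-71873273, plus strand: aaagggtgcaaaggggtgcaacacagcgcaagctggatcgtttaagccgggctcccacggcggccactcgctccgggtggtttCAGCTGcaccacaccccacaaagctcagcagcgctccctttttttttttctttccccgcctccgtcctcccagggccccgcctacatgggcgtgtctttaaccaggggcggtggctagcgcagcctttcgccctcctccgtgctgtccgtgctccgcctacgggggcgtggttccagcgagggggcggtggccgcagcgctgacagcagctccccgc
The Pgam2 window held 5 E-boxes and 1 MEF2 motif, that of Pygm 3 E-boxes, that of Eno3 2, that of Pdk1 1 and that of Pgam1 0. Both strands were searched, E-boxes may overlap other motifs, and no other window of these 5 held a MEF2 motif. An E-box was found in 72.3% of all 32851 promoter windows of this length and in 40 of the 55 windows listed for the 35 genes, and a MEF2 motif in 1.86% of all windows and in 2 of the 55. The core of the hypoxia response element (ACGTG, or CACGT on the other strand) was in 19.6% of all windows and in 21 of the 55. The windows of Pgam1 and Pygm held 1 each and that of Pdk1 held 0. These matches describe letters only, and no match says nothing about a factor.

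Most of the genes differed between tissues in both strains. In B6, 28 of the 34 genes differed between muscle and BAT (19 higher in muscle, 9 lower), against 64.4% of all genes tested (30.3% higher, 34.2% lower). Between muscle and gWAT, 31 differed (22 higher, 9 lower), against 71.5% (36.7% and 34.8%), and between BAT and gWAT 30 (24 higher in BAT, 6 lower), against 61.6% (34.3% and 27.3%). In NZO, 28 differed between muscle and BAT (22 higher, 6 lower), against 61.5% of all genes (26.9% and 34.6%). Between muscle and gWAT of NZO 32 differed (24 and 8), against 67.1% (34.7% and 32.3%), and between BAT and gWAT 30 (23 and 7), against 62.6% (36.4% and 26.2%). The comparisons share arrays, so these counts are not independent. With the replicate number as a block, in comparisons where the numbers were taken to pair the arrays, Pfkfb1 did not pass between muscle and gWAT of B6 (adjusted p = 0.130), nor did Hk1 between BAT and gWAT of NZO (adjusted p = 0.0828).

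Pgam2, the muscle phosphoglycerate mutase, was 109-fold higher in B6 muscle than in B6 BAT (difference 6.77, SE 0.43, adjusted p = 1.34e-05), and 12.93 (SE 0.26) higher on the log2 scale in NZO, 9.76 ± 0.07 in muscle (SD, n = 4) and -3.17 ± 0.59 in BAT. Pygm was 99.4-fold higher in muscle than in BAT of B6 and 467-fold in NZO. For Eno3, the muscle enolase, the ratios were 45.3 and 211. Pfkm, the muscle phosphofructokinase, and Phka1, the muscle subunit of phosphorylase kinase, had ratios of 34.5 in B6 and 30.4 in NZO (Pfkm), and 48.1 and 44.2 (Phka1). Gys1, the muscle glycogen synthase, was 1.98-fold and 2.23-fold higher in muscle than in BAT, and Fbp2, the muscle fructose bisphosphatase, 2.32-fold and 4.20-fold. Hk2 did not pass between muscle and BAT in either strain (-0.49, SE 0.23, adjusted p = 0.0945 in B6; -0.03, SE 0.36, adjusted p = 0.954 in NZO).

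The counterparts of these isoforms ran the other way. Pfkl, the liver-type phosphofructokinase, was 50.6-fold lower in muscle than in BAT of B6 and 40.2-fold lower in NZO. Pfkp, the platelet type, was 11.5-fold and 12.3-fold lower, Pgam1 23.3-fold and 18.3-fold, and Eno1 11.6-fold and 5.71-fold. Ldhb, the heart-type lactate dehydrogenase, was 3.90-fold and 2.77-fold lower in muscle than in BAT. Among the regulators, Pdk4 separated BAT from gWAT most, 53.1-fold higher in BAT of B6 and 14.3-fold in NZO. Pfkfb4 had its highest level in muscle, 16.3-fold above BAT in B6 and 15.2-fold in NZO. Every ratio between tissues given so far, other than those given for Hk2, passed the test.

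**Figure D1:**
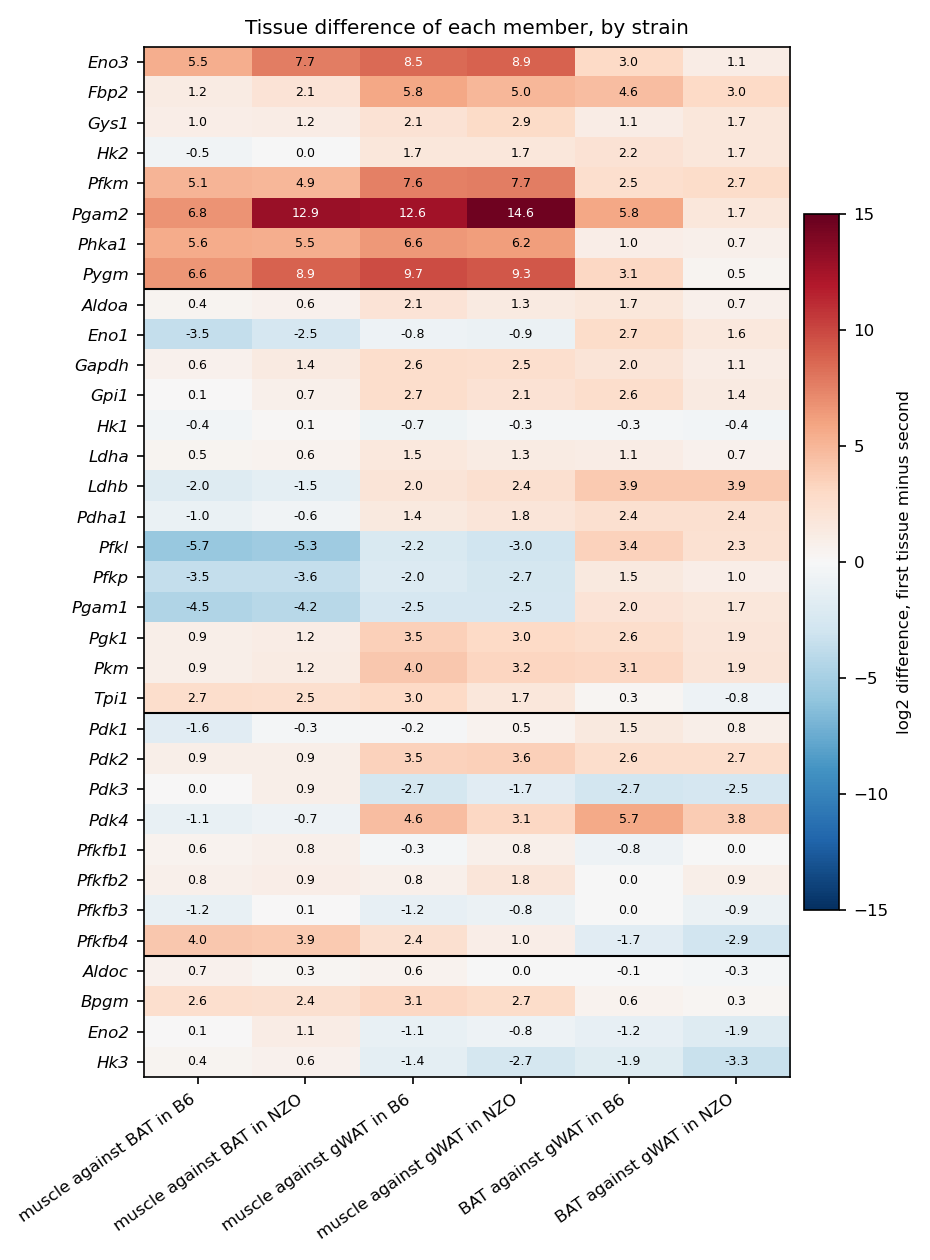
Log2 difference of each gene between tissues (first tissue minus second), in columns for B6 and NZO and rows grouped as muscle-rich isoforms, widely expressed enzymes, regulatory kinases and isoforms of other cell types. Pgam2, Pygm, Eno3, Phka1 and Pfkm are far higher in muscle than in either fat, Pfkl, Pfkp, Pgam1 and Eno1 are lower, and the Pgam2 difference between muscle and BAT is 6.77 in B6 and 12.93 in NZO.

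In brown fat, 16 of the 34 genes fell in NZO, 0 rose and 18 did not pass, where limma called 15.1% of all genes (7.6% higher, 7.51% lower). The median difference was -0.46 over the 34 genes and 0.01 over all genes. Both lists of enzymes contributed. Of 8 muscle-rich isoforms, 6 fell (Pgam2, Pygm, Eno3, Hk2, Fbp2 and Gys1), of 14 widely expressed enzymes 6 fell (Pkm, Gapdh, Pgk1, Gpi1, Pdha1 and Ldhb), of 8 regulators 3 fell (Pdk1, Pfkfb3 and Pdk3), and of 4 isoforms of other cell types 1 fell (Bpgm). With arrays centred on the median, the counts were 14 lower and 1 higher (Hk3), and with quantile normalization 16 and 1. The strains did not overlap for 17 genes, 14 of them called, against 21.6% of all genes.

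Pgam2 had the widest difference. Its NZO BAT levels were -3.49, -3.49, -3.41 and -2.30, and its B6 BAT levels 2.23, 2.88, 3.04 and 4.26. Every B6 array was above every NZO array, and the difference was -6.27 (SE 0.45, 77.4-fold lower in NZO, adjusted p = 6.43e-05). Pygm, which releases phosphorylated glucose from glycogen, was at -0.57, -0.13, 0.38 and 0.83 in NZO and at 1.92, 2.53, 2.81 and 3.74 in B6 (difference -2.62, SE 0.42, 6.14-fold lower, adjusted p = 0.00443). Eno3 was at 2.03, 2.44, 2.66 and 2.79 in NZO and at 4.23, 4.77, 4.90 and 5.95 in B6 (difference -2.48, SE 0.35, 5.59-fold lower, adjusted p = 0.00210). The highest B6 value of all 3 genes came from the same array, 010, and the lowest from array 011.

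These isoforms fell in NZO BAT with the fibre markers, but Pygm and Eno3 fell by less. Differences of the 15 fibre markers were -9.48 to -3.02, against -6.27 for Pgam2, -2.62 for Pygm and -2.48 for Eno3. The same B6 array 010 had the highest summed fibre marker level (10.15) and array 011 the lowest (8.09). As a share of the muscle level of the same strain, the median of the 15 fibre markers was 3.38% on B6 array 010, 1.07% on 009, 0.948% on 015 and 0.655% on 011, and 0.00477 to 0.0521% on the NZO arrays. Pgam2 in B6 BAT averaged 1.05% of its B6 muscle level and Pygm 1.12%, within the range of 0.789 to 7.84% of the fibre markers, and Eno3 2.43%. In NZO BAT, Pgam2 was at 0.0137%, Pygm at 0.228% and Eno3 at 0.482%. The fibre markers were at 0.00403 to 0.122% there, so Pgam2 lay within their range and Pygm and Eno3 above it. Most fibre markers were not well above background on every NZO BAT array, so their shares there are imprecise. Pfkm and Phka1, at 2.92 and 2.13% in B6 BAT, were at 3.30 and 2.25% in NZO BAT. Pkm, Pgk1, Gapdh and Gys1 lay above the range of the fibre markers in both strains. Pkm was at 54.6% of its muscle level in B6 BAT and 43.4% in NZO BAT, Pgk1 at 53.6 and 44.6%, Gapdh at 64.5 and 40.2%, and Gys1 at 50.4 and 44.7%.

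As an alternative added after the data were seen, each BAT array's median fibre marker share of the muscle signal was subtracted from every gene. Of the 34 genes, 13 were then called, among them Pygm with its sign turned to higher in NZO. The subtracted amount brought Pgam2 to the floor of the array on 4 of 4 B6 BAT arrays and Pygm on 3 of 4, so their values after subtraction were set by the construction and are not read here. Phka1 was brought to the floor on 1 of 4 B6 BAT arrays. Phka1 and Pfkm, not called in the main fit (-0.47 and -0.28), lay above 0 in 1 of the 19 alternatives run in BAT (1.94 and 1.29). Hk2 (-1.36, adjusted p = 0.0520) and Bpgm (-0.21, adjusted p = 0.285) did not pass. Eno3 stayed lower in NZO at -1.25, and Pkm, Pgk1, Gapdh, Gpi1 and Pdk1 at -1.32, -0.85, -0.93, -0.64 and -2.98. Eno3, at 2.43% of its muscle level in B6 BAT, lay within the fibre marker range of 0.789 to 7.84%. Subtracting a median share leaves signal of any gene above that share and can take too much from a gene below it. The part of muscle fibres in the Eno3 value was therefore not tested.

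**Figure D2:**
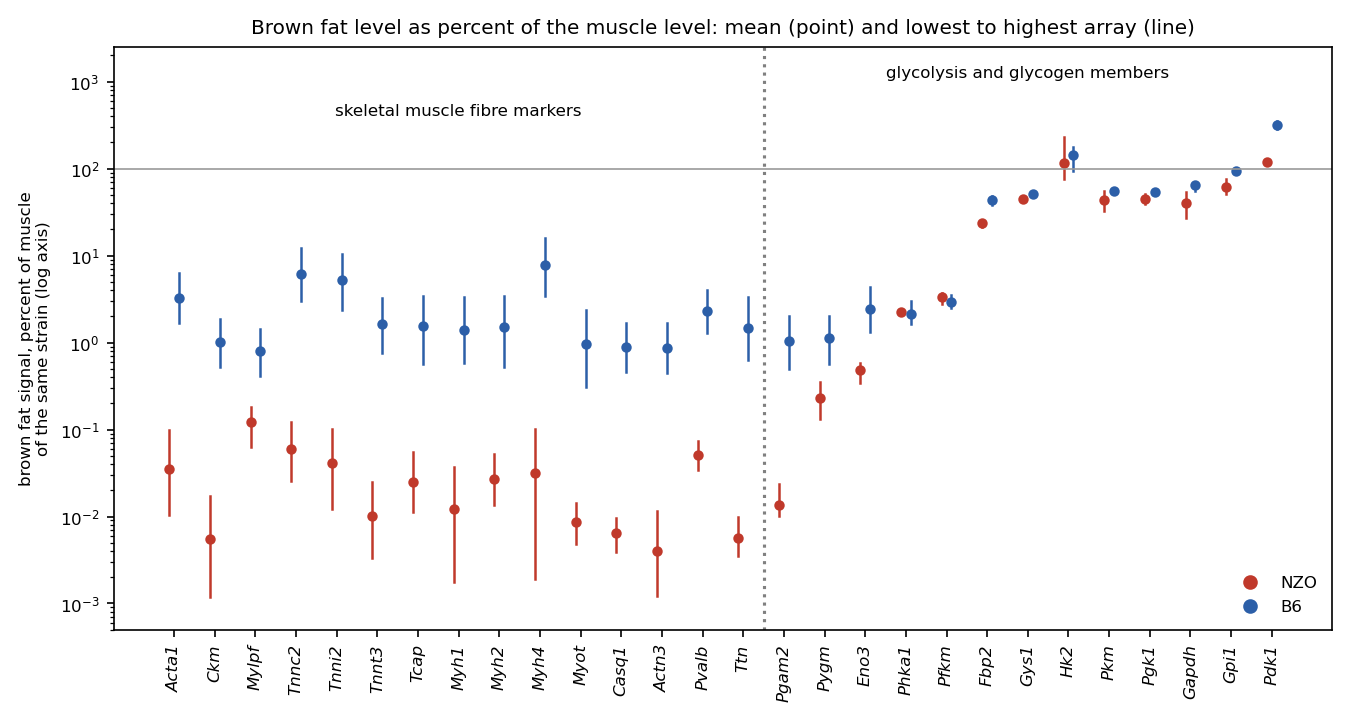
Brown fat signal as percent of the mean muscle signal of the same probe and strain (log axis), for 15 skeletal muscle fibre markers and 13 glycolysis and glycogen genes, with the mean over 4 arrays as a point and the lowest to highest array as a line. Pgam2 and Pygm in B6 (1.05 and 1.12%) sit among the fibre markers, while Pkm, Pgk1, Gapdh and Gys1 sit between 40.2 and 64.5% in both strains.

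Pkm, Pgk1, Gapdh and Gpi1 also fell in NZO BAT. Pkm, the pyruvate kinase of muscle and most other tissues, was at 6.24, 6.41, 6.85 and 7.02 in NZO and at 7.92, 7.98, 8.02 and 8.05 in B6, 2.57-fold lower (difference -1.36, SE 0.17, adjusted p = 0.00132). For Pgk1, phosphoglycerate kinase, the NZO levels were 6.97, 7.11, 7.21 and 7.36 and the B6 levels 7.95, 8.01, 8.07 and 8.20 (difference -0.89, SE 0.11, adjusted p = 0.00113). The files place this Pgk1 probe on mm9 chromosome 3, and the other Pgk1 probe, on chromosome X, gave -0.19 (adjusted p = 0.292), so the value for Pgk1 is uncertain. Gapdh, often used as a reference gene, was at 8.47, 8.85, 9.16 and 9.46 in NZO and at 9.72, 9.94, 10.04 and 10.09 in B6 (difference -0.96, SE 0.21, adjusted p = 0.0165), and all 7 of its probes were called, with differences of -1.37 to -0.96. The files place a Gapdh probe (-1.19) on mm9 chromosome 8 and the others on chromosome 6, where some overlap, so they are not separate readings. Gpi1, the phosphoglucose isomerase, had levels of 8.17, 8.36, 8.36 and 8.76 in NZO and 8.95, 9.03, 9.14 and 9.19 in B6 (difference -0.67, SE 0.14, adjusted p = 0.0132). Strains did not overlap for any of these 4 genes.

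Pdha1 (-0.60, SE 0.11, adjusted p = 0.00961) and Ldhb (-0.57, SE 0.09, adjusted p = 0.00498) were the other widely expressed enzymes that fell. Aldoa, Eno1, Ldha, Pfkl, Pfkp, Pgam1, Tpi1 and Hk1 did not pass, with differences of -0.74 (Eno1, adjusted p = 0.0532) to 0.18 (Hk1, adjusted p = 0.276). Pfkp is uncertain, since this probe gave -0.28 (adjusted p = 0.314) and its second probe -1.83 without overlap (adjusted p = 0.000707, over all probes). Fbp2 was at 0.51, 0.64, 0.75 and 0.77 in NZO and at 1.30, 1.43, 1.56 and 1.65 in B6 (difference -0.82, SE 0.11, adjusted p = 0.00169), with no overlap. With slide as a block in a fit of all arrays, Fbp2 did not pass (-1.26, adjusted p = 0.106), nor did Pdha1 and Ldhb (adjusted p up to 0.0936 and 0.190 over all alternatives). Hk2, the insulin-responsive hexokinase, was at 2.88, 2.90, 2.92 and 4.49 in NZO and at 4.08, 4.79, 4.81 and 5.01 in B6, so that 1 NZO array, 011, lay within the B6 range. Its difference was -1.37 (SE 0.39, adjusted p = 0.0496).

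Some calls in brown fat lay near the threshold and were lost when 1 array was left out. Gapdh did not pass without NZO array 009 (-0.92, adjusted p = 0.0547). Hk2 and Pfkfb3 did not pass without any 1 of NZO arrays 003, 007 and 009 and B6 arrays 009, 010 and 015, with differences of -1.33 to -1.23 for Hk2 (adjusted p from 0.0987 to 0.134) and -0.83 to -0.65 for Pfkfb3 (adjusted p from 0.0930 to 0.124). Pdk3 did not pass without NZO array 003 or 007 or B6 array 009, 010 or 011 (-0.45 to -0.39, adjusted p from 0.0502 to 0.0703), nor Bpgm without any 1 of the 8 arrays other than NZO array 011 (-0.38 to -0.33, adjusted p from 0.0634 to 0.107). Pdk1, Eno3, Gys1, Gpi1, Pkm and Pgk1 passed under every alternative run. For Pgk1 these gave -0.97 to -0.76, so none took the value of its other probe (-0.19), and Pgk1 stays uncertain. Pdk1 was at -1.09, -1.07, -1.07 and -1.06 in NZO BAT and at 1.77, 1.90, 1.91 and 2.08 in B6 BAT, 7.94-fold lower without overlap (difference -2.99, SE 0.09, adjusted p = 9.88e-07). Gys1 was at 4.88, 4.97, 5.0 and 5.10 against 5.54, 5.62, 5.66 and 5.73 (difference -0.65, SE 0.09, adjusted p = 0.00182), also without overlap. Pdk2 and Pdk4 did not pass (-0.27, adjusted p = 0.0989, and -0.40, adjusted p = 0.236).

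White fat had members moving in both directions, and the balance depended on the scaling. With the 75th percentile, 11 genes fell in NZO, 7 rose, and the other 16 missed the threshold, where limma called 31.2% of all genes (16.6% higher, 14.6% lower). Centring arrays on the median moved all strain differences in gWAT by 0.26 and gave 10 higher and 5 lower, against 8 and 14 with quantile normalization. The median over the 34 genes was -0.03, against 0.02 over all genes. The first minus the second was -0.05, and median centring, which moves every gene alike, left it there by construction. With quantile normalization it was -0.18. Of 8 muscle-rich isoforms, 5 fell (Gys1, Hk2, Pgam2, Eno3 and Pfkm). Of 14 widely expressed enzymes, 4 rose (Tpi1, Pfkl, Gpi1 and Aldoa) and 2 fell (Pdha1 and Ldhb). Of 8 regulators, 2 rose (Pdk4 and Pfkfb4) and 4 fell (Pdk1, Pdk3, Pfkfb1 and Pfkfb2), and Hk3 rose among the 4 isoforms of other cell types.

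Hk3, a hexokinase of myeloid cells, was at 1.19, 1.41, 1.68 and 1.79 on the NZO gWAT arrays and at -1.37, -1.27, -0.94 and -0.60 on those of B6. The strains stood well apart, with a difference of 2.56 (SE 0.21, 5.90-fold higher in NZO, adjusted p = 6.17e-05). Macrophage markers moved with it. Their summed level was 7.62 to 7.83 in NZO gWAT and 6.28 to 6.55 in B6 gWAT, all 8 were well above background on every gWAT array, and that of neutrophil markers was 3.72 to 4.63 against 0.34 to 1.71. The part of these cells in the Hk3 result was not tested.

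Gys1 and Hk2, which act in glycogen synthesis and at the first step of glucose use, fell in NZO gWAT. Gys1 was at 3.12, 3.13, 3.31 and 3.63 in NZO and at 4.29, 4.45, 4.46 and 4.78 in B6, 2.29-fold lower (difference -1.20, SE 0.16, adjusted p = 0.00082). Hk2 was at 1.21, 1.66, 1.67 and 1.75 in NZO and at 2.05, 2.37, 2.75 and 2.82 in B6 (difference -0.92, SE 0.20, adjusted p = 0.0100), and did not pass with arrays centred on the median (-0.67, adjusted p = 0.0835). Neither gene's strains overlapped. Pgam2 was at -5.23, -5.07, -4.75 and -4.39 in NZO, where 2 of 4 arrays were well above background, and at -3.60, -3.55, -2.58 and -0.995 in B6 (difference -2.18, SE 0.55, adjusted p = 0.0181). It did not pass with normexp background correction or in the series value table (adjusted p up to 0.112). The highest of these levels, on B6 array 010, came with the highest fibre marker level of gWAT, 5.01 against 2.31 to 3.22 on the other B6 arrays.

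The regulators split. Pdk1 was at -1.98, -1.92, -1.86 and -1.82 in NZO and at 0.28, 0.33, 0.43 and 0.66 in B6, 5.0-fold lower (difference -2.32, SE 0.11, adjusted p = 5.64e-06). Pdk4 went the other way, at 3.08, 3.24, 4.41 and 4.48 in NZO and at 2.02, 2.06, 2.23 and 2.91 in B6 (difference 1.498, SE 0.37, adjusted p = 0.0172). The brown adipocyte markers were higher in NZO gWAT as well, and their part in the Pdk4 result was not tested. Pdk3 fell by 0.60 on the log2 scale (adjusted p = 0.00335) and Pdk2 did not pass (-0.35, adjusted p = 0.137). Among the Pfkfb enzymes, which make and remove the activator of phosphofructokinase, Pfkfb1 was at 3.06, 3.20, 3.55 and 3.64 in NZO and at 4.37, 4.43, 4.45 and 4.57 in B6 (difference -1.09, SE 0.15, adjusted p = 0.00100). Pfkfb2 was at -3.14, -2.90, -2.83 and -2.42 against -1.99, -1.78, -1.76 and -1.73 (difference -1.01, SE 0.16, adjusted p = 0.00211). Pfkfb4 rose, at 3.38, 3.41, 3.68 and 3.76 in NZO and 1.88, 2.15, 2.53 and 2.55 in B6 (difference 1.28, SE 0.18, adjusted p = 0.00114), and its second probe gave 1.35. Pdk4 did not pass without B6 array 011 (1.40, adjusted p = 0.0503). For none of these called regulators did the strains overlap, and Pfkfb3 did not pass (0.07, adjusted p = 0.836).

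Tpi1, triosephosphate isomerase, was at 6.93, 7.01, 7.53 and 7.69 in NZO gWAT and at 6.22, 6.25, 6.26 and 6.77 in B6, 1.89-fold higher without overlap (difference 0.92, SE 0.21, adjusted p = 0.0127), and its second probe gave 0.81. Pfkl rose 1.60-fold, Gpi1 1.45-fold with all 3 of its probes called, and Aldoa, the main aldolase, 1.43-fold. The Gpi1 probes start at 34987173, 34987174 and 34987178 on mm9 chromosome 7, so they read nearly the same bases. Pdha1, Ldhb, Eno3 and Pfkm fell by 0.59, 0.57, 0.58 and 0.54 on the log2 scale. With arrays centred on the median, these 4 and Pdk3 did not pass (adjusted p from 0.153 to 0.319), while Eno1, Eno2 and Hk1 did (0.63, 1.05 and 0.60). Without 1 array, Aldoa (B6 010, 011 or 015, NZO 007 or 009), Eno3 (B6 010 or 011, NZO 003, 007 or 009), Ldhb (B6 009, 010 or 015, NZO 003 or 012) and Pdha1 (B6 009, 010 or 011, NZO 003 or 012) did not pass. Their differences were then 0.44 to 0.53, -0.59 to -0.47, -0.58 to -0.49 and -0.58 to -0.49, with adjusted p of at most 0.0798. Gapdh (-0.13), Pkm (-0.16), Ldha (0.03) and Pgam1 (-0.0016) did not pass with the 75th percentile, and with the median Gapdh (0.13) and Pkm (0.10) lay above 0. Pgk1 is uncertain here too, since its probe with the highest mean gave -0.14 (adjusted p = 0.533) and the other 0.67 (adjusted p = 0.0138).

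**Figure D3:**
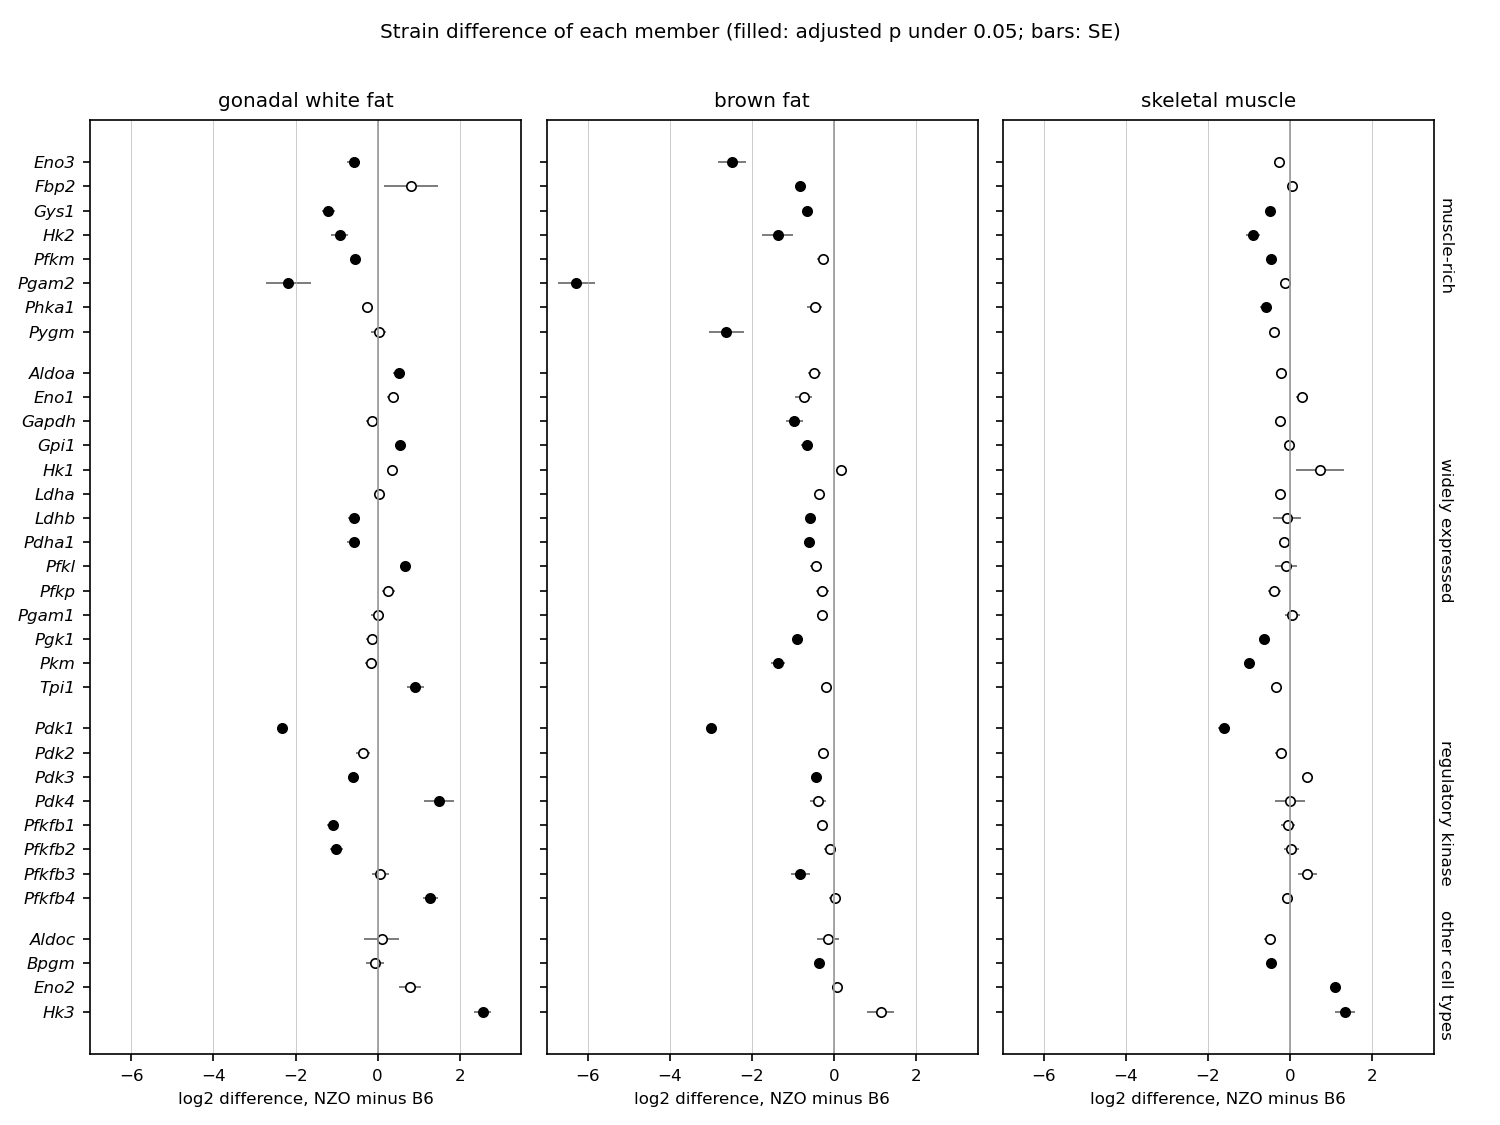
Log2 strain difference (NZO minus B6) of 34 genes in gWAT, BAT and skeletal muscle, grouped by role, with the SE of the limma fit as bars and filled points for an adjusted p under 0.05. Pdk1 lies at -2.32, -2.99 and -1.62, the filled points of brown fat all lie below 0, and white fat has filled points on both sides.

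In muscle, 8 of the 34 genes fell in NZO, 2 rose and 24 did not pass, where limma called 10.4% of all genes (4.43% higher, 6% lower). The median difference was -0.18, against -0.04 for all genes. Median centring gave 2 higher and 3 lower and quantile normalization 2 and 4. With B6 muscle array 011 included, 2 genes were called, Pdk1 (-1.46, adjusted p = 0.00340) and Pkm (-0.84, adjusted p = 0.0265). That array differed from the mean of the other 3 by 2.70 for Hk3, 1.58 for Pfkl, 1.46 for Pgam1 and 1.001 for Eno2, and lay below it for all 8 muscle-rich isoforms, by log2 values of -0.87 to -0.49. Without B6 array 010, 009 or 015 or NZO array 007, 3, 4, 5 and 6 genes were called. The strains did not overlap for 19 genes, against 27.3% of all genes.

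Pdk1 was at -1.56, -1.52, -1.24 and -1.08 in NZO muscle and at 0.18, 0.25 and 0.38 in B6 muscle (difference -1.62, SE 0.15, 3.08-fold lower, adjusted p = 0.000763). Pkm was at 7.75, 7.83, 7.93 and 7.96 in NZO and at 8.78, 8.86 and 8.96 in B6 (difference -0.999, SE 0.10, 2.0-fold lower, adjusted p = 0.00149). Hk2 was at 2.96, 3.17, 3.37 and 3.57 against 4.07, 4.13 and 4.34 (difference -0.91, SE 0.16, adjusted p = 0.0161). In each of these genes all B6 arrays lay above all NZO arrays. Pgk1 was at 8.11, 8.38, 8.41 and 8.42 in NZO and at 8.84, 8.98 and 9.05 in B6 (difference -0.63, SE 0.12, adjusted p = 0.0194), while its other probe gave -0.08 (adjusted p = 0.743). Hk2 did not pass without B6 array 009 or 010 (-0.93 to -0.83, adjusted p of at most 0.0719), with slide as a block (-0.86, adjusted p = 0.153) or in 1 fit of all 23 arrays (adjusted p = 0.0605), nor Pgk1 without any 1 of the 3 B6 arrays (adjusted p of at most 0.0834).

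Gys1 and Phka1, both of glycogen turnover, fell with smaller differences. Gys1 was at 5.99, 6.15, 6.22 and 6.23 in NZO muscle and at 6.54, 6.66 and 6.67 in B6 muscle (difference -0.48, SE 0.11, adjusted p = 0.0324), and its second probe did not pass (-0.09, adjusted p = 0.645). Phka1 was at 6.76, 7.01, 7.03 and 7.25 against 7.53, 7.57 and 7.70 (difference -0.59, SE 0.14, adjusted p = 0.0372). Leaving out any 1 of the 7 arrays ended the call of Gys1 (-0.52 to -0.43, adjusted p of at most 0.142), and leaving out any 1 other than NZO array 003 those of Phka1 and Pfkm (adjusted p of at most 0.155 and 0.130). Pygm did not pass (-0.39, SE 0.11, adjusted p = 0.0627), although its strains did not overlap. Pfkm was at 9.31, 9.32, 9.32 and 9.48 in NZO and at 9.75, 9.84 and 9.86 in B6 (difference -0.46, SE 0.10, adjusted p = 0.0278). Bpgm, which makes the oxygen-affinity regulator of red cells, was at 4.38, 4.43, 4.49 and 4.5 against 4.84, 4.92 and 5.0 (difference -0.47, SE 0.10, adjusted p = 0.0232). Bpgm did not pass without any 1 B6 array or NZO array 003 or 007 (adjusted p of at most 0.108). With slide as a block in a fit of all arrays, neither Pfkm (-0.36, adjusted p = 0.0926) nor Bpgm (-0.35, adjusted p = 0.263) passed. Erythroid marker sums were 6.85 to 7.89 in NZO muscle and 6.71 to 6.89 in B6 muscle.

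Genes that rose in NZO muscle were Hk3 and the neuronal enolase Eno2. Hk3 was at -1.69, -1.20, -0.86 and -0.86 in NZO and at -2.82, -2.40 and -2.24 in B6 (difference 1.33, SE 0.24, adjusted p = 0.0166). Macrophage marker sums were 5.76 to 6.15 against 5.53 to 5.62, also without overlap, but of the 8 markers only 1 was called higher in NZO muscle and 0 lower. Their part in the result was not tested, and Hk3 did not pass without B6 array 010 or 015 (adjusted p of at most 0.0618). Eno2 was at -1.21, -1.11, -1.11 and -1.08 in NZO and at -2.45, -2.22 and -2.01 in B6 (difference 1.1, SE 0.13, adjusted p = 0.00233). The nerve and glia marker sums were 4.13 to 4.59 in NZO muscle and 2.60 to 4.25 in B6 muscle. Eno3, Pgam2, Aldoa, Gapdh and Ldha, the abundant muscle enzymes, had differences of -0.26, -0.12, -0.21, -0.24 and -0.24, and none passed. All 7 Gapdh probes lay below 0 there (-0.45 to -0.24), and 2 of them were called in a test of all probes. Hk1 had an SD of 1.43 over the B6 arrays, because array 009 was at 4.22 and the other 2 at 6.65 and 6.72, while its other probes had SDs of 0.09 and 0.25 there.

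Pdk1, Hk2 and Gys1 fell in NZO in all 3 tissues, 3 of the 34 genes, where 1.79% of 18936 genes tested in all 3 did so. No member rose in all 3 (0 of 34, background 1.51%). The Pdk1 probe lies at chr2:71739688-71739747 on mm9. On slides that held both strains of a tissue its differences were -2.15 and -2.64 in gWAT, -2.84 in BAT and -1.77 in muscle. Gys1 (chr7:52711790-52711849) gave -1.08 and -1.15, -0.76 and -0.44 on the same slides, and Hk2 (chr6:82675056-82675115) -1.04 and -1.16, -1.88 and -0.96. Each of the 18, 16 and 10 genes called in gWAT, BAT and muscle kept its sign within every such slide. For the 18, 14 and 10 of them whose strains did not overlap, the sign could not have turned, since the same arrays were used. Pdk1 passed under every alternative in all 3 tissues, Gys1 in both fats, and Hk2 in none of the 3 under all. Whether NZO carries other bases at the probed positions was not tested, and exon or UTR positions of the probes were not annotated here.

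**Figure D4:**
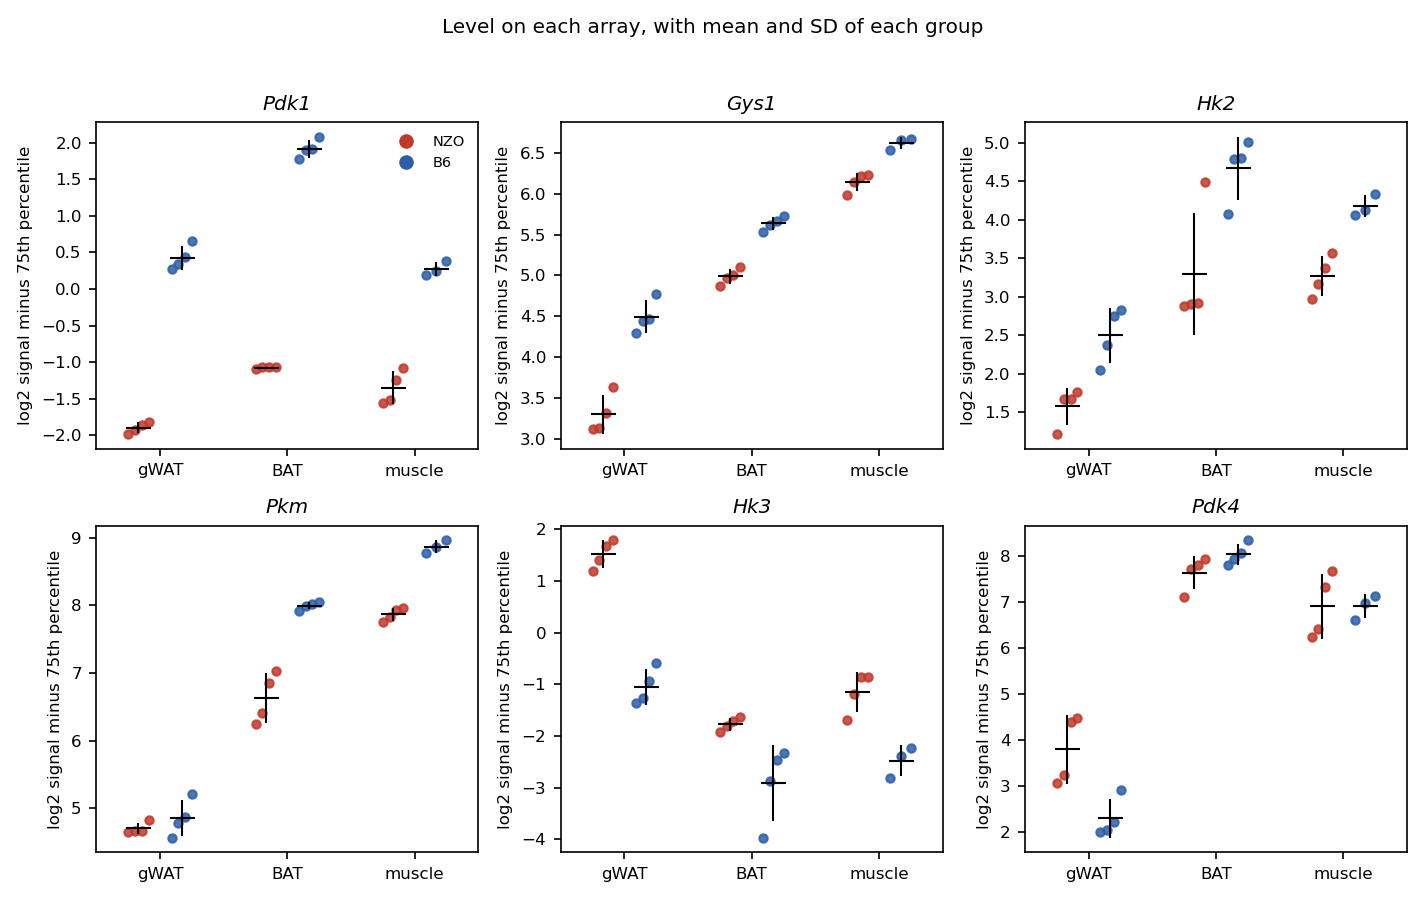
Level of Pdk1, Gys1, Hk2, Pkm, Hk3 and Pdk4 on each array (log2 signal minus the 75th percentile), by tissue, with NZO in red, B6 in blue and the mean and SD of each group in black. NZO lies below B6 in each tissue for Pdk1 and Gys1, 1 NZO brown fat array of Hk2 (4.49) lies within the B6 range, and Hk3 is higher in NZO in white fat (1.52 against -1.04).

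Strain differences changed from tissue to tissue for many members. Between BAT and gWAT, 18 of 34 genes had strain differences that themselves differed (15 lower in BAT, 3 higher), against 18.6% of all genes (9.97% lower, 8.63% higher). Between muscle and gWAT the count was 13 (7 lower in muscle, 6 higher), against 20.4% (12.5% and 7.98%), and between muscle and BAT 9, all higher in muscle, against 5.96% (3.37% lower, 2.59% higher). The widest were Pgam2, Pygm and Eno3, whose BAT minus gWAT values were -4.10, -2.64 and -1.90. Tpi1, Gpi1, Pfkl, Aldoa and Eno1 had differences above 0 in gWAT and below 0 in BAT, and the tests of the change gave -1.10, -1.20, -1.10, -0.99 and -1.11 (adjusted p from 6.86e-05 to 0.00700). Of these, Gpi1 passed in both tissues, higher in gWAT and lower in BAT. Pkm had a value of -1.20 for BAT minus gWAT (adjusted p = 0.000412), and of -0.84 for muscle minus gWAT (adjusted p = 0.00970). Pdk1 fell more in BAT than in gWAT (-0.67, adjusted p = 0.00444) and less in muscle than in BAT (1.37, adjusted p = 1.93e-05). Pdk4 and Pfkfb4 rose in gWAT and differed from BAT by -1.89 (adjusted p = 0.0100) and -1.25 (adjusted p = 0.000363). With arrays centred on the median, or with slide as a block, the count between muscle and BAT was 5 and 4.

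The balance of isoforms within an array was compared between strains for 7 pairs, in tissues where both isoforms were well above background on all arrays of both strains, giving 20 tests. Exact permutation tests over arrays cannot go below p = 0.0286 for 4 against 4 arrays or 0.0571 for 4 against 3, and no test passed after Benjamini-Hochberg adjustment over the 20 (smallest 0.0816). The strains did not overlap for 5 pairs of gWAT and 2 pairs each of BAT and muscle. Both of these muscle pairs overlapped when B6 array 011 was included. Of all single genes, 35.5% in gWAT, 21.6% in BAT and 27.3% in muscle did not overlap. The share among other gene pairs was not tested, so these counts cannot be set against a background. Probes of a pair shared at most 8 bases in a row of their 60.

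The log2 balance of Hk2 to Hk1 differed by -1.27 in gWAT (exact permutation p = 0.0286), -1.56 in BAT (exact p = 0.0571, with overlap) and -1.65 in muscle (exact p = 0.0571), where the SD of the B6 arrays was 1.57 because of the Hk1 value on array 009. Eno3 relative to Eno1 was lower in NZO in each tissue without overlap (-0.95, -1.75 and -0.55). In gWAT, Pfkm was lower relative to both Pfkl (-1.22) and Pfkp (-0.80), and Ldha higher relative to Ldhb (0.61), each without overlap (exact permutation p = 0.0286 each, adjusted 0.0816). With the dimmest probe of each gene, the Pfkm to Pfkp balance turned to 0.44, since the 2 Pfkp probes differed in gWAT (0.26 and -0.99). In BAT, neither Pfkm balance differed beyond its spread (0.15, exact permutation p = 0.571, and 0.0049, exact p = 0.971). Pgam2 relative to Pgam1 was lower in NZO BAT (-5.98), and in muscle the strains overlapped (-0.17, exact permutation p = 0.4). Aldoa relative to Aldoc overlapped in all 3 tissues.

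**Figure D5:**
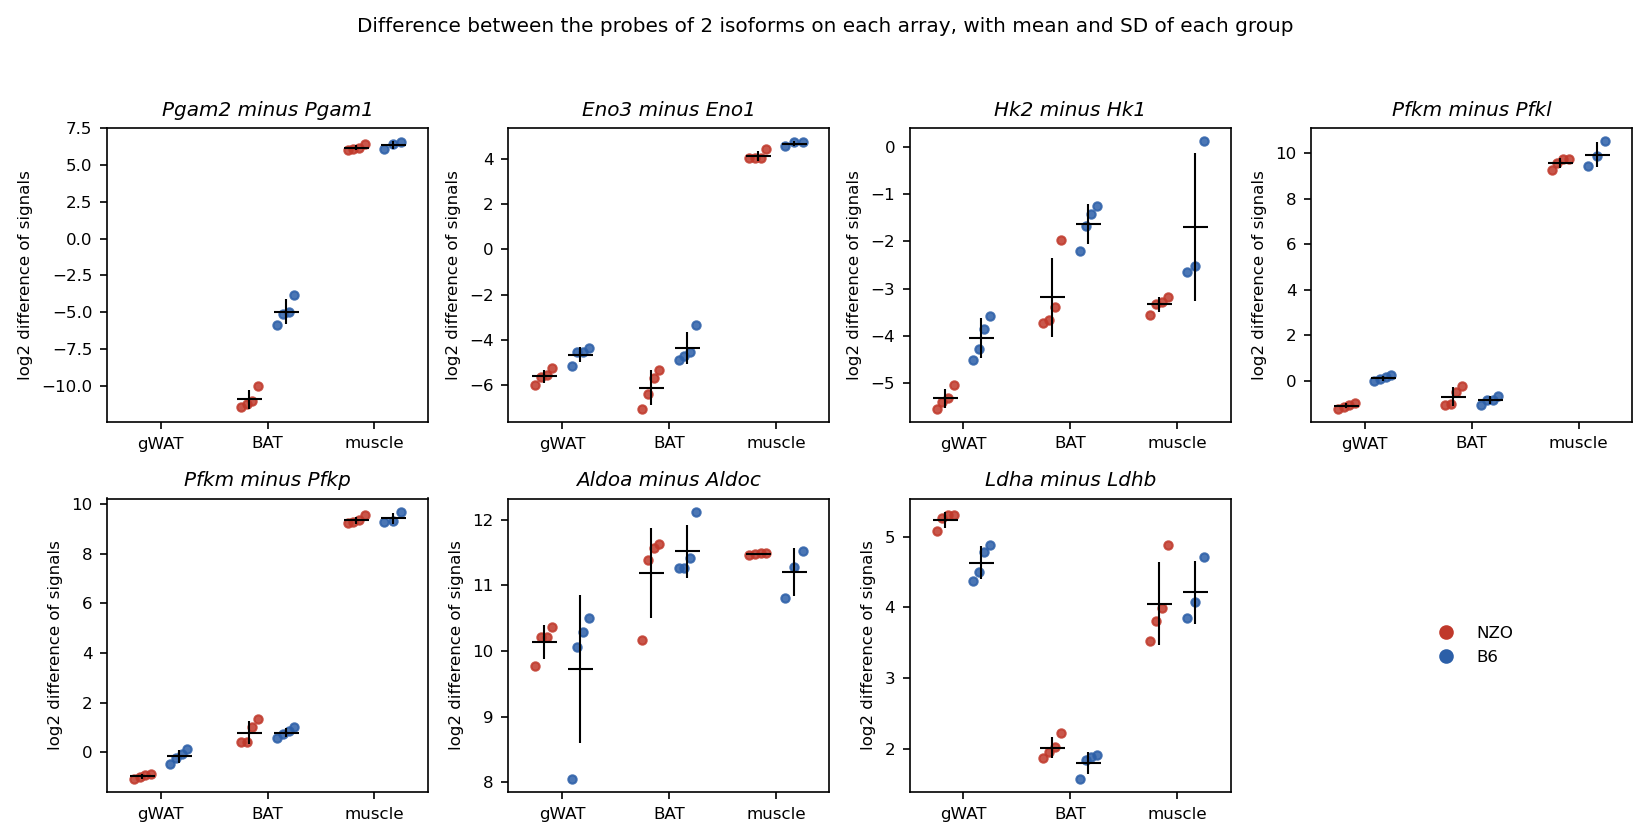
Log2 signal of the first isoform minus that of the second on each array, by tissue, for 7 isoform pairs, with NZO in red, B6 in blue and the mean and SD of each group in black. Only shifts between groups can be read, since the probes differ; NZO lies below B6 for Eno3 minus Eno1 in all 3 tissues and for Pgam2 minus Pgam1 in BAT (difference -5.98).

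Other genes of glucose and glycogen metabolism were counted from a list of 56. In gWAT 49 were tested, of which 4 rose and 12 fell in NZO, where 31.2% of all genes were called. In BAT 1 of 50 rose and 13 fell (15.1% of all genes called), and in muscle 1 of 52 rose and 4 fell (10.4%). In gWAT, Ppp1r3e, a subunit that brings phosphatase to glycogen, was at -1.97 ± 0.31 in B6 (SD, n = 4) and at -4.67 ± 0.35 in NZO, where 1 of 4 arrays was well above background (difference -2.70, adjusted p = 6.00e-05). Gpd2, the mitochondrial glycerol phosphate dehydrogenase, had a difference of -1.54 (SE 0.17, adjusted p = 0.000313), and Phkg1, the catalytic subunit of muscle phosphorylase kinase, -1.28 (SE 0.26, adjusted p = 0.00722). Those that rose in gWAT included Gyg, the primer of glycogen (0.72, adjusted p = 0.0180), Hif1a (0.60, adjusted p = 0.0315) and the lactate exporter Slc16a3 (0.56, adjusted p = 0.0476).

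In BAT, Phkg1 (-1.79, SE 0.36, adjusted p = 0.0121), Ppp1r3g (-1.74, well above background on 1 of 4 NZO arrays, adjusted p = 0.0209) and Slc16a3 (-1.71, SE 0.33, adjusted p = 0.0101) had the widest differences below 0 among the called genes, beside the fibre markers that fell there, and Nhlrc1 rose (0.72, adjusted p = 0.0186). The part of the fibre markers in these values was not tested. In muscle, Epm2a, the glycogen phosphatase laforin (-0.73, SE 0.16, adjusted p = 0.0318), and Pgm1, which links glycogen to glycolysis (-0.66, SE 0.10, adjusted p = 0.00780), fell, and Pdp1, the phosphatase that opposes the pyruvate dehydrogenase kinases, rose (0.60, SE 0.15, adjusted p = 0.0497).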

How the data were processed

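The deposited array files hold spot intensity values from Agilent Feature Extraction 11.0.1.1, per the file headers, with 1 array per file and probe positions on mm9. The submitters' processing notes name version 9.1. The processed intensity is background-subtracted within the array, per the file headers, and is not scaled between arrays. A deposited value table of the series holds linear intensity values equal to the mean of each transcript's median spot signals within a relative tolerance of 1e-04, without background subtraction or centring. Its column medians ranged from 43 to 70, and it was used as an alternative.

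From these, log2 of the processed signal was taken, spots of a probe were averaged without outlier-flagged spots, and the array's 75th percentile over non-control probes was subtracted. Control spots were left out. Where a transcript accession matched RefSeq (GRCm38.p6; 27656 probes) its symbol replaced the file's gene name, except for the 35 genes described. A gene was tested if every array of at least 1 compared group had its probe well above background. Strains were compared in R 4.3.3 with limma 3.58.1 (lmFit and eBayes) on only the groups compared, with Benjamini-Hochberg adjustment over all genes tested. Tissue dependence of the strain difference was tested in 1 fit of 23 arrays. The scripts were tested on simulated data. Between 51.9 and 59.3% of probes were well above background per array, the number of arrays limits the precision, and the median SE was 0.17, 0.15 and 0.16 in gWAT, BAT and muscle. Correlations between arrays were at most 0.986, and no 2 arrays held identical values.

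Replicate numbers were shared across tissues of a strain. Deviations from the group means correlated above 0.1 for all 3 same-number pairs of BAT and gWAT in NZO (0.163, 0.288 and 0.348) and of muscle and gWAT in B6 (0.145, 0.113 and 0.354). By this rule alone the numbers were taken to pair these arrays, since the labels do not say whether equal numbers are the same animal. The array of the same number was the best match in 6 of 20 pairs. Among these were all 3 of BAT and gWAT in NZO, but of muscle and gWAT in B6 only 009. The rule therefore cannot establish that equal numbers are the same animal. In the other 4 comparisons at least 1 pair correlated below 0.1 (lowest over all 20 pairs -0.17), and the numbers were not taken to pair them. The highest of the 20, 0.413, was in 1 of these, BAT and gWAT of B6. Arrays came from 6 slides scanned on 3 days. Slide and scan day were alternatives, beside scaling, background correction, dim probes and arrays left out. The genes, their roles, the marker lists and the 56 other genes were chosen with earlier results of these data known. Array values were given for called genes without overlap, widest difference first, up to 10 per tissue, and for a few others chosen after their values were seen. Other genes were named if called, up to 3 per direction and tissue, with all probes of 1 sign. The result of 1 gene that this rule named is not reported here.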

Additional observations from a re-analysis of the deposited data

Results flagged for a closer look

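In 15 of 175 groups of 4 arrays (35 genes), 1 array stood apart from the other 3; chance gives this in about 1 group in 20. Aldoc was at 0.81 on B6 gWAT array 015, against a group median of -1.12. Aldoc was at -0.23 on NZO BAT array 003, against a group median of -1.10. Eno1 was at 5.79 on NZO muscle array 011, against a group median of 6.16. Hk2 was at 4.49 on NZO BAT array 011, against a group median of 2.91. Hk2 was at 1.21 on NZO gWAT array 012, against a group median of 1.66. Ldha was at 9.60 on B6 BAT array 011, against a group median of 9.89. Ldha was at 9.97 on NZO muscle array 007, against a group median of 10.05. Pdha1 was at 5.82 on NZO muscle array 009, against a group median of 5.56. Pfkfb4 was at 0.97 on NZO BAT array 011, against a group median of 0.56. Pfkm was at 9.48 on NZO muscle array 003, against a group median of 9.32. Pgam2 was at -2.30 on NZO BAT array 009, against a group median of -3.45. Pgam2 was at 9.65 on NZO muscle array 011, against a group median of 9.79. Pgk1 was at 8.11 on NZO muscle array 011, against a group median of 8.395. Pkm was at 4.83 on NZO gWAT array 007, against a group median of 4.66. Tpi1 was at 6.77 on B6 gWAT array 009, against a group median of 6.25. All of these arrays were kept.

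The strain difference (NZO minus B6, log2) itself differed between tissues in 40 cases, by limma interaction terms with adjusted p under 0.05 over all genes tested. The value of BAT minus gWAT was below 0 for Pgam2 (-4.10), Pygm (-2.64), Eno3 (-1.90), Pdk4 (-1.89), Hk3 (-1.42), Pfkfb4 (-1.25), Pkm (-1.20), Gpi1 (-1.20), Eno1 (-1.11), Pfkl (-1.10), Tpi1 (-1.10), Aldoa (-0.99), Gapdh (-0.84), Pgk1 (-0.76) and Pdk1 (-0.67). The Pgk1 value is uncertain, since its probes differed in both tissues. The value of BAT minus gWAT was above 0 for Pfkfb2 (0.91), Pfkfb1 (0.79) and Gys1 (0.55). The value of muscle minus gWAT was below 0 for Pdk4 (-1.50), Pfkfb4 (-1.35), Tpi1 (-1.26), Hk3 (-1.23), Pkm (-0.84), Aldoa (-0.73) and Gpi1 (-0.56). It was above 0 for Pgam2 (2.06), Pfkfb2 (1.04), Pfkfb1 (1.03), Pdk3 (1.02), Gys1 (0.72) and Pdk1 (0.70). The value of muscle minus BAT was above 0 for Pgam2 (6.15), Pygm (2.23), Eno3 (2.22), Pdk1 (1.37), Pfkfb3 (1.24), Eno2 (1.03), Eno1 (1.03), Pdk3 (0.87) and Gpi1 (0.65). The adjusted p ranged from 1.37e-05 for Pgam2 between muscle and BAT to 0.0422 for Hk3 between muscle and gWAT.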

How the results depend on the processing

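The counts of called genes kept within 1.5 times the main value under all alternatives for gWAT, BAT and the 6 tissue comparisons. In muscle, 10 genes were called with the main settings, 5 with arrays centred on the median, 6 with quantile normalization, 5 with no filter on dim probes and 2 with B6 array 011 included. Leaving out 1 array gave 3 to 8 genes in muscle, 14 to 18 in gWAT and 12 to 19 in BAT. The count of genes whose strain difference changed between muscle and BAT was 9, against 5 with median centring and 4 with slide as a block, and 6 to 10 with 1 array left out. Isoform pairs without overlap in muscle numbered 2, and 0 with B6 array 011 included. With the lowest-mean probe of each gene they numbered 3 in gWAT in place of 5, and 4 in BAT in place of 2. Among called genes and isoform pairs without overlap, the values that turned were Pygm in BAT with the muscle share subtracted (3.27, set by the floor on 3 of 4 B6 arrays) and the Pfkm to Pfkp balance in gWAT with the lowest-mean probe (0.44). Except where an alternative drops arrays or genes, the cause was not tested. With a replicate block, muscle against BAT in B6 gave 28 called genes, muscle against gWAT 30 and BAT against gWAT 29, and in NZO 29, 30 and 29. With strain and number together as a replicate block, an alternative added after the data were seen, 17, 12 and 7 genes were called for the change of the strain difference between BAT and gWAT, muscle and gWAT, and muscle and BAT. Pfkfb2 and Gys1 lost the call between BAT and gWAT, Pfkfb2 between muscle and gWAT, and Eno1 and Eno2 between muscle and BAT (adjusted p from 0.05004 to 0.0647). Dim probes limit Pgam2 in NZO gWAT, which was well above background on 2 of 4 arrays.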
